A study of Bos taurus with 16 samples.

Results

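SMKR1, HSPA6, MUM1 (current symbol PWWP3A), OST4 and RBM8A are 5 of the 36824 gene entries counted in bovine follicular cells. They were picked because their counts differed between cumulus cells from the ovary that bore the corpus luteum (ipsilateral) and cumulus cells from the opposite ovary (contralateral). That side contrast in cumulus cells is therefore given for these genes as a description, with no test. Cumulus cells surround the oocyte, granulosa cells line the follicle wall, and the corpus luteum is the progesterone-secreting gland left after ovulation.

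Poly(A) RNA was sequenced from 16 libraries of Bos taurus, with 4 for each side of each cell type, namely ipsilateral and contralateral cumulus cells and ipsilateral and contralateral granulosa cells. Per the design text, each of the 4 pools of a group combined 3 animals, and the cells came from follicular fluid taken at ovum pick-up. No group carried a drug treatment or allele in the labels, and for breed, age and cycle day nothing is given in the sources used here. Whether 1 animal gave cells to several groups is not stated, so the tests measure the spread between pools. Because pooled cells were measured in bulk, a change in the mixture of cells and a change in RNA per cell cannot be told apart.

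The 5 genes have unrelated roles. HSPA6 encodes an HSP70 chaperone that is nearly silent in unstressed human cells and is switched on by heat shock and protein damage. OST4 is a very small membrane subunit of the oligosaccharyltransferase, the enzyme of the endoplasmic reticulum that attaches N-linked glycans to new proteins. RBM8A (Y14) pairs with MAGOH in the core of the exon junction complex, which marks spliced mRNA and takes part in nonsense-mediated decay. MUM1 carries a PWWP domain, a module that binds chromatin, and has been linked in human cells to DNA repair. SMKR1 encodes a small lysine-rich protein.

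Totals lay between 10.1 and 21.9 M counts per library (M, mega). They ran from 10.6 to 15.9 M in ipsilateral and from 14.9 to 20 M in contralateral cumulus libraries. Few defining markers could be followed by symbol. The cumulus-high gene C11H2orf40 stood between 714.4 and 1477.1 CPM in cumulus and between 11 and 197.6 CPM in granulosa libraries. TIMP1 stood between 14.9 and 83.2 CPM in cumulus and between 1406.8 and 2766.0 CPM in granulosa libraries. CPM are counts per 1 M of a library's total, with the total corrected by a TMM factor. Each of these markers was the only 1 of 11 listed symbols of its cell type found. Their ranges in the cell types did not overlap, which held for 28% of all entries tested. The lists were chosen with earlier results of these data known, so this is no test of the labels. Of markers of other cells, the platelet chemokine gene PF4 stood between 0 and 0.243 CPM in cumulus and between 0.449 and 3.91 CPM in granulosa libraries, and the surface epithelium gene MUC16 between 0 and 2.09 CPM in cumulus and between 0 and 44.3 CPM in granulosa libraries. These were the only listed symbols of leukocytes (1 of 12) and surface epithelium (1 of 8) found, and their part in the cell type differences was not tested. The oocyte transcripts H1FOO and BCL2L10, the only 2 of 27 listed oocyte marker symbols found in the table, summed to 204.2 CPM in contralateral cumulus library 4 (titled X8) and to 18.6 CPM in contralateral cumulus library 2. The other cumulus libraries held between 0.67 and 1.38 CPM of them.

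SMKR1 was lower on the ipsilateral side. It stood at 9.30, 10, 8.95 and 9.87 CPM in ipsilateral cumulus libraries 1 to 4, against 18.5, 14, 30.5 and 19.3 CPM in contralateral cumulus libraries 1 to 4. Every ipsilateral library lay below every contralateral one, and the spread differed between the sides, with a coefficient of variation of 5.16% ipsilaterally and 34.2% contralaterally. The log2 fold change was -1.11 ± 0.22 (SE), and -1.14 ± 0.25 with contralateral library 4 left out. Contralateral library 3 carried the highest value, and without it the log2 fold change was -0.86.

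HSPA6 had the largest fold difference of the 5 genes with all cumulus libraries, while SMKR1 had the largest without contralateral library 4 and without contralateral libraries 2 and 4. HSPA6 stood at 3.21, 5.96, 5.38 and 2.13 CPM in ipsilateral cumulus libraries, against 7.97, 11.1, 7.52 and 17.4 CPM in contralateral ones. The groups did not overlap, but the nearest values were close. Ipsilateral library 2 held 65 counts and contralateral library 3 held 116, and their exact 95% binomial intervals before TMM scaling, 4.73 to 7.81 CPM and 6.42 to 9.32 CPM, overlapped. Such intervals treat reads as independent, which PCR copies are not, and leave out the spread between pools.

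The HSPA6 log2 fold change was -1.41 ± 0.36 (SE) with all 8 cumulus libraries and -1.10 ± 0.34 without contralateral library 4. Libraries 4 and 2 of the contralateral group were the highest for HSPA6 and also held the most oocyte transcripts. With both left out, a choice made after seeing the data, the log2 fold change was -0.90 ± 0.38. The remaining contralateral values were 7.97 and 7.52 CPM, and leaving libraries out could not make the groups overlap. In granulosa cells, contralateral library 3 held 10.8 CPM of the oocyte transcripts and had HSPA6 at 1.49 CPM, within the range of the other granulosa libraries. The part of oocyte RNA in the HSPA6 difference was not tested.

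**Figure D1:**
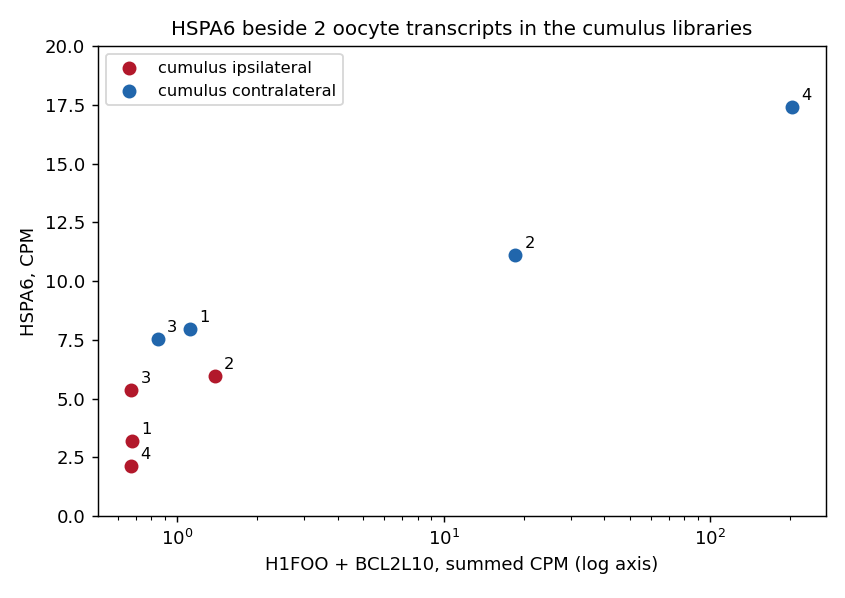
HSPA6 level (vertical axis, CPM) against the summed level of the oocyte transcripts H1FOO and BCL2L10 (horizontal log axis, CPM) in the 8 cumulus libraries, numbered within their group. Contralateral libraries 4 and 2 stand at 204.2 and 18.6 CPM of oocyte transcripts with HSPA6 at 17.4 and 11.1 CPM, and the other 6 libraries lie at or below 1.38 CPM of oocyte transcripts.

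MUM1 differed by less than SMKR1 and HSPA6. It stood at 102.4, 107.7, 102.7 and 99.4 CPM in ipsilateral cumulus libraries, against 129.6, 118.6, 150.7 and 144.6 CPM in contralateral ones. The ipsilateral libraries spanned 99.4 to 107.7 CPM and lay below all contralateral libraries. The log2 fold change was -0.40 ± 0.09 (SE), and -0.37 ± 0.10 without contralateral library 4.

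OST4 and RBM8A ran the other way. OST4 stood at 129.3, 145.9, 166.5 and 143.0 CPM in ipsilateral cumulus libraries, against 113.9, 116.1, 105.9 and 108.9 CPM in contralateral ones. All ipsilateral libraries lay above all contralateral ones, and here the ipsilateral side was the more scattered, with an SD of 15.4 CPM against 4.64 CPM contralaterally (n = 4 each). The OST4 log2 fold change was 0.39 ± 0.09 (SE), and 0.38 ± 0.10 without contralateral library 4. RBM8A stood at 196.0, 199.9, 214.2 and 207.8 CPM in ipsilateral cumulus libraries, against 181.6, 183.2, 155.7 and 163.2 CPM in contralateral ones. It showed the smallest of the 5 differences, a 1.19-fold one, and the groups did not overlap. Its log2 fold change was 0.25 ± 0.08 (SE), and 0.23 ± 0.09 without contralateral library 4.

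**Figure D2:**
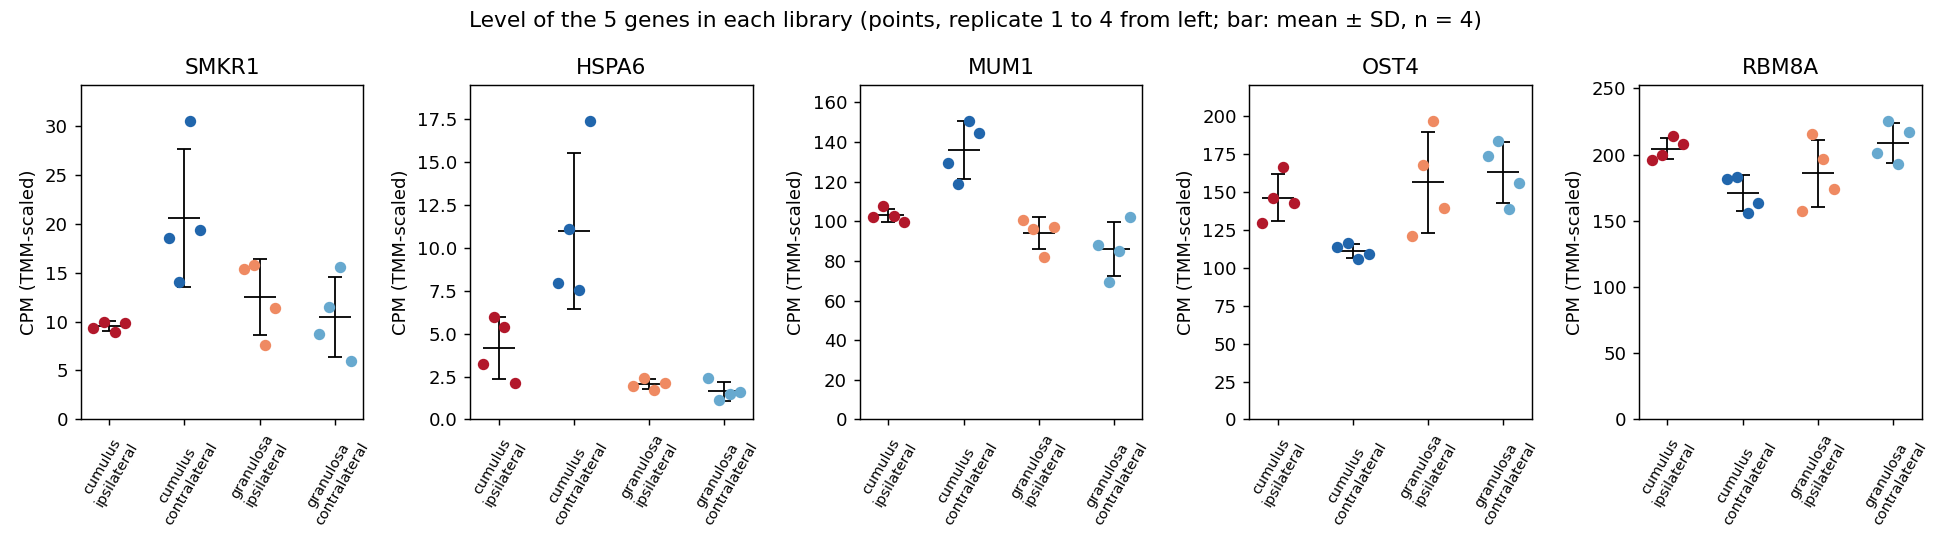
Level in CPM after TMM scaling (vertical axes, starting at 0) of SMKR1, HSPA6, MUM1, OST4 and RBM8A in each of the 16 libraries, by group. Points are libraries 1 to 4 from left to right, and bars give the mean ± SD (n = 4). The contralateral cumulus group has the highest mean for SMKR1, HSPA6 and MUM1 and the lowest for OST4 and RBM8A.

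The groups did not overlap in cumulus cells for 5 of 5 genes, all picked for their difference in these libraries. Over all 16323 entries tested, 5.19% had side groups that did not overlap. By edgeR's quasi-likelihood test with Benjamini-Hochberg adjustment, 0 of all entries (0%) passed an adjusted p of 0.05 between the sides in cumulus cells, while 1791 entries had an unadjusted p under 0.05 and DESeq2 called 120, which is 0.437% of those it tested. The median log2 fold change of all entries tested was -0.01. The groups were apart for each of the 5 genes on CPM with no TMM factor as well. Groups that are apart stay so when a library is left out, so leaving out contralateral library 4 could not change this.

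Within the contralateral cumulus group, 4 of the genes put the libraries in a single order or its mirror image. SMKR1 and MUM1 were both highest in library 3, followed by libraries 4, 1 and 2. OST4 and RBM8A were both highest in library 2, followed by libraries 1, 4 and 3. Total counts followed the order of OST4 and RBM8A, with 20 M counts in library 2, 18.6 in library 1, 16.8 in library 4 and 14.9 in library 3. HSPA6 did not follow it and ran from library 4 over 2 and 1 to library 3.

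Between the sides depth ran differently. Ipsilateral cumulus libraries 1 to 4 had totals of 11.4, 10.6, 14.7 and 15.9 M counts, 3 of them below the shallowest contralateral library, together with the higher OST4 and RBM8A values. In ipsilateral cumulus and in both granulosa groups no such shared order was seen among these 4 genes. The order was noticed after the values had been seen, rests on 4 libraries, and its relation to depth was not tested.

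**Figure D3:**
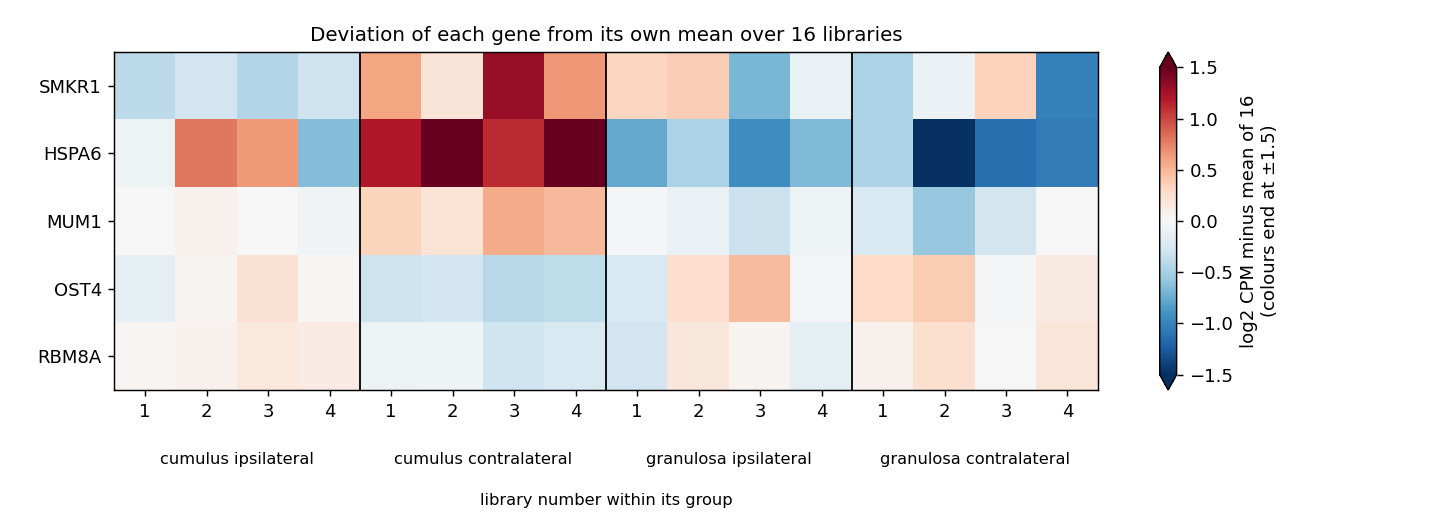
Log2 CPM of each gene in each of the 16 libraries minus that gene's mean over all 16 (colour, red above and blue below, ending at ±1.5), with libraries numbered within their group. In contralateral cumulus cells SMKR1, HSPA6 and MUM1 lie above and OST4 and RBM8A below their own means in all 4 libraries.

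The granulosa libraries were not used to pick the genes, so the side comparison there is a test. None of the 5 genes passed between the sides in granulosa cells. By edgeR's quasi-likelihood test 0 of 5 passed over 16411 entries, where 0% of entries passed, and none of the 5 had an unadjusted p under 0.05, which 3.53% of entries had. DESeq2 and limma-voom also called 0 of the 5.

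SMKR1 stood at 15.4, 15.8, 7.57 and 11.4 CPM in ipsilateral granulosa libraries 1 to 4, against 8.76, 11.5, 15.6 and 5.97 CPM in contralateral ones. These groups overlapped widely, and the log2 fold change was 0.26 ± 0.34 (SE, edgeR adjusted p = 1). HSPA6 stood at 1.94, 2.42, 1.73 and 2.11 CPM in ipsilateral granulosa libraries, against 2.43, 1.11, 1.49 and 1.58 CPM in contralateral ones. Its values rest on 21 to 47 counts per library, and the log2 fold change was 0.32 ± 0.41 (SE, edgeR adjusted p = 1).

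MUM1 stood at 100.8, 96.2, 82.2 and 97.2 CPM in ipsilateral granulosa libraries, against 88.0, 69.3, 85.0 and 102.3 CPM in contralateral ones. OST4 stood at 120.7, 168.1, 197.0 and 139.5 CPM in ipsilateral granulosa libraries, against 173.5, 183.7, 138.5 and 155.7 CPM in contralateral ones. RBM8A stood at 157.4, 215.3, 197.0 and 174.0 CPM in ipsilateral granulosa libraries, against 200.8, 225.5, 192.5 and 216.9 CPM in contralateral ones. For each of these 3 genes, as for the other two, the sides overlapped, where 2.27% of entries tested in granulosa cells had sides that did not. The log2 fold changes were 0.13 ± 0.14 for MUM1, -0.06 ± 0.16 for OST4 and -0.17 ± 0.11 for RBM8A (SE, edgeR adjusted p = 1 for each).

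In granulosa cells all 5 log2 fold changes had the sign opposite to that in cumulus cells, a comparison that shares no library. Of 15128 entries tested in both cell types, 50.5% had opposite signs. The 5 genes may vary together and the groups may share animals, so the 5 signs were not tested against that share. The OST4 sign was not stable, with 0.043 when ipsilateral granulosa library 1 was left out and 9e-04 when contralateral granulosa library 2 was. The 95% intervals of the granulosa fold changes bound what these libraries allow. They ran from -0.49 to 1 for SMKR1, from -0.60 to 1.24 for HSPA6 and from -0.17 to 0.43 for MUM1. They ran from -0.41 to 0.29 for OST4 and from -0.42 to 0.09 for RBM8A. None held the estimate from cumulus cells, which has an error of its own and was the value the genes were picked on.

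The difference of the side effects, cumulus minus granulosa, holds the contrast that picked the genes and is given without a test. It was -1.37 ± 0.42 (SE) for SMKR1, -1.73 ± 0.52 for HSPA6 and -0.53 ± 0.16 for MUM1. It was 0.45 ± 0.19 for OST4 and 0.43 ± 0.14 for RBM8A.

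**Figure D4:**
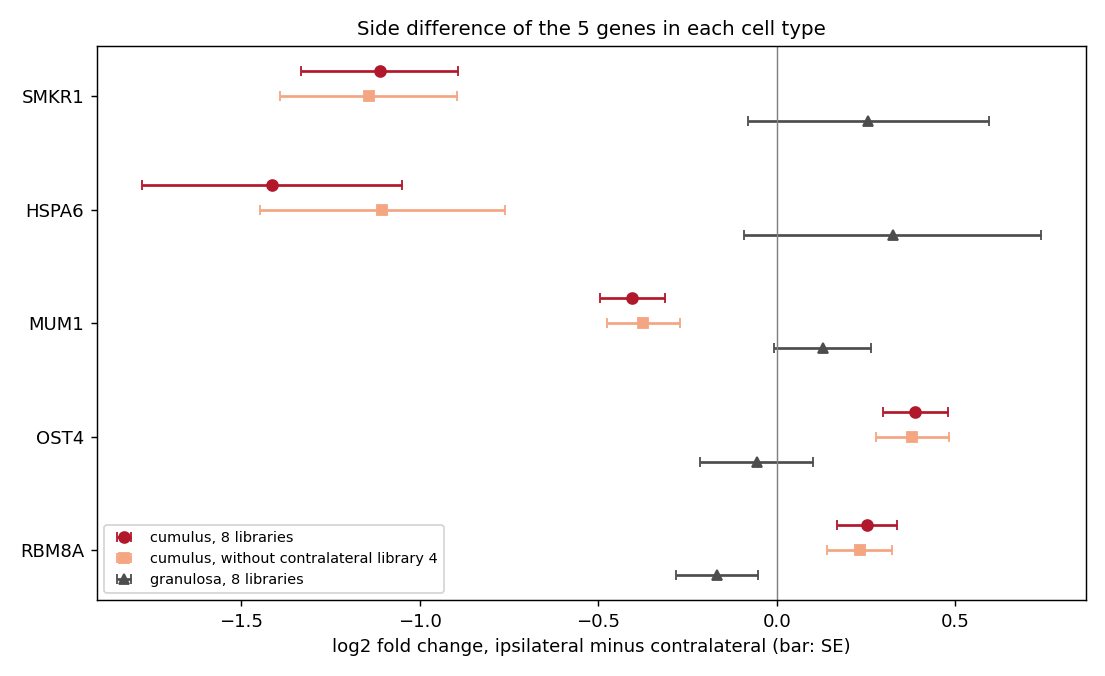
Log2 fold change, ipsilateral minus contralateral (horizontal axis, bars ± SE), of each gene in the 8 cumulus libraries, in cumulus libraries without contralateral library 4, and in the 8 granulosa libraries. Leaving out contralateral library 4 moves each gene by less than its SE, with HSPA6 at -1.10 in place of -1.41, and the granulosa estimates lie on the other side of 0.

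The comparison of cumulus with granulosa cells averages both sides, but it holds the cumulus libraries of both sides, on whose values the genes were picked. It is therefore a description for these genes. HSPA6 averaged 7.59 ± 4.85 CPM in cumulus cells and 1.85 ± 0.464 CPM in granulosa cells, with 8 libraries a cell type and SD as the error, and its log2 fold change was 1.88 ± 0.26 (SE). MUM1 averaged 119.5 ± 20.1 CPM in cumulus cells and 90.1 ± 11.2 CPM in granulosa cells, with a log2 fold change of 0.39 ± 0.08. OST4 averaged 128.7 ± 21.5 CPM in cumulus cells and 159.6 ± 25.7 CPM in granulosa cells, with a log2 fold change of -0.32 ± 0.09. SMKR1 averaged 15.1 ± 7.5 CPM in cumulus cells and 11.5 ± 3.84 CPM in granulosa cells, with a log2 fold change of 0.29 ± 0.21. RBM8A averaged 187.7 ± 20.7 CPM in cumulus cells and 197.4 ± 22.9 CPM in granulosa cells, with a log2 fold change of -0.08 ± 0.07.

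By edgeR's quasi-likelihood test 3 of the 5 genes (HSPA6, MUM1 and OST4) lay past the threshold, where 60.2% of all 18038 entries did. Of them 2 were higher and 1 was lower in cumulus cells, against 29.9% and 30.3% of all entries, so the count does not set the 5 genes apart. The count rests on cumulus values that picked the genes and is no test of them. The ranges of the cell types overlapped for each of the 5, while 28% of all entries had ranges that did not. For HSPA6 the overlap came from ipsilateral cumulus library 4, at 2.13 CPM, against a highest granulosa value of 2.43 CPM.

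The averaged differences were larger in contralateral than in ipsilateral libraries. That difference between the sides holds the contrast used to pick the genes and was not tested. Within ipsilateral libraries alone, 0 of the 5 genes lay past the edgeR threshold between cell types, where 44.3% of all entries did. Within contralateral libraries alone 5 of 5 did, where 47.6% of all entries did. Both counts, 0 of 5 and 5 of 5, rest on cumulus values that picked the genes. The log2 fold change was -0.40 ± 0.25 (SE) for SMKR1 in ipsilateral and 0.98 ± 0.32 in contralateral libraries, and for HSPA6 1.01 ± 0.38 and 2.76 ± 0.37. MUM1 had 0.12 ± 0.10 in ipsilateral and 0.67 ± 0.13 in contralateral libraries. OST4 had -0.10 ± 0.15 in ipsilateral and -0.53 ± 0.10 in contralateral libraries, and RBM8A had 0.13 ± 0.11 and -0.27 ± 0.09. Signs differed between the sides for SMKR1 and RBM8A.

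**Figure D5:**
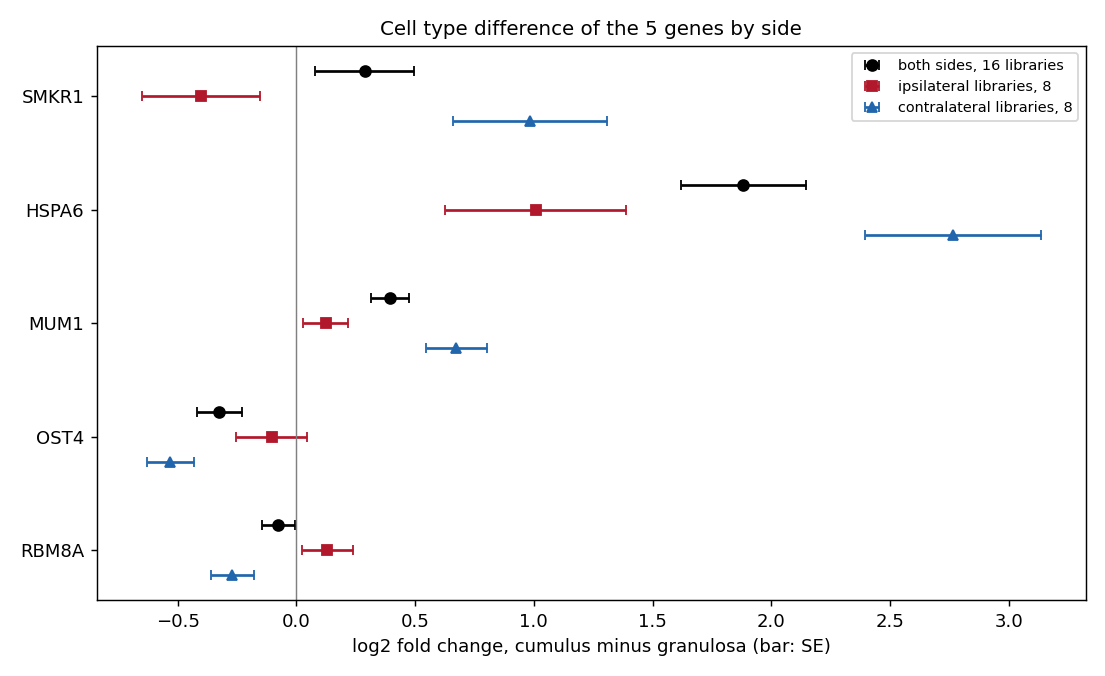
Log2 fold change, cumulus minus granulosa (horizontal axis, bars ± SE), of each gene with both sides averaged (16 libraries), in ipsilateral libraries alone and in contralateral libraries alone (8 each). For all 5 genes the contralateral estimate is the farthest from 0.

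Ordered by mean level, the contralateral cumulus group stood at an end for each gene. Picking the genes on the difference between the cumulus groups favours such an order, and its share over all entries was not counted. Where a neighbouring pair was apart, it was the pair of cumulus groups, which did not overlap for 5.19% of entries tested. SMKR1 had means of 20.6 CPM in contralateral cumulus, 12.5 in ipsilateral granulosa, 10.5 in contralateral granulosa and 9.53 in ipsilateral cumulus cells, and each neighbouring pair in that order overlapped. HSPA6 had means of 11 CPM in contralateral cumulus, 4.17 in ipsilateral cumulus, 2.05 in ipsilateral granulosa and 1.65 in contralateral granulosa cells, and only the first neighbouring pair did not overlap. MUM1 had means of 135.9 CPM in contralateral cumulus, 103.0 in ipsilateral cumulus, 94.1 in ipsilateral granulosa and 86.2 in contralateral granulosa cells, again with only the first pair apart.

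OST4 had means of 162.9 CPM in contralateral granulosa, 156.3 in ipsilateral granulosa, 146.2 in ipsilateral cumulus and 111.2 in contralateral cumulus cells. Only the last neighbouring pair was apart, and the contralateral cumulus libraries, up to 116.1 CPM, lay below all other libraries. RBM8A had means of 208.9 CPM in contralateral granulosa, 204.5 in ipsilateral cumulus, 185.9 in ipsilateral granulosa and 170.9 in contralateral cumulus cells, and each neighbouring pair overlapped. Levels were not compared between genes, since transcript lengths of the authors' annotation were not used here.

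Genes that work with these 5 could hardly be followed, because most entries of the table carry Ensembl IDs that the reference does not name. Of listed symbols, 1 of 44 for HSP70 and heat shock, 0 of 12 for the oligosaccharyltransferase, 1 of 26 for the exon junction complex and mRNA decay and 1 of 28 for PWWP-domain proteins had an entry. BAG5, a co-chaperone of HSP70, was lower in cumulus than in granulosa cells, at 8.07 ± 1.33 and 16.4 ± 3.56 CPM (SD, n = 8 each, edgeR adjusted p = 1.21e-05). UPF3A, a decay factor that binds the exon junction complex, was lower in cumulus cells as well, at 13.2 ± 2.98 CPM against 17.9 ± 2.47 CPM in granulosa cells (edgeR adjusted p = 0.00376). MUM1L1, the MUM1 paralogue, was higher in cumulus cells, at 59.6 ± 7.67 CPM against 27.9 ± 8.54 CPM in granulosa cells (edgeR adjusted p = 2.38e-05). Between the cell types 60.2% of all entries passed, so these 3 are not set apart by it. None of the 3 passed between the sides in either cell type, where 0% of all entries did by edgeR's test. In cumulus cells their log2 fold changes, ipsilateral minus contralateral, were 0.07 ± 0.21 (SE) for BAG5, -0.48 ± 0.18 for UPF3A and 0.12 ± 0.13 for MUM1L1.

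The named entries with the closest profiles were ranked by the root mean square difference of log2 CPM over the 16 libraries, each gene centred on its own mean, among 812 named entries tested. SELENOH (0.338), TMEM250 (0.369) and LRRN2 (0.396) came closest to SMKR1. HEXDC (0.622), TARSL2 (0.685) and TDRKH (0.706) came closest to HSPA6, at larger differences than those of the other 4 genes. The measure is not scaled to a gene's own spread or counting error, and HSPA6 rests on 21 to 47 counts per granulosa library. H2AFY (0.193), WDR34 (0.209) and CD3EAP (0.212) came closest to MUM1. FAM96B (0.101), SNURF (0.141) and CCDC58 (0.156) came closest to OST4, and ZNRD1 (0.105), FAM96A (0.125) and GTF3C6 (0.126) to RBM8A. FAM96B averaged 129.0 CPM in ipsilateral against 105.6 CPM in contralateral cumulus cells, and 132.1 CPM in ipsilateral against 146.9 CPM in contralateral granulosa cells.

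For MUM1 and HSPA6 another entry of the table followed the gene more closely than independent counting would. The unnamed entry ENSBTAG00000030839 held between 0.969 and 0.986 of the MUM1 count in every library, a profile difference of 0.0079 on the log2 scale where independent counting would give about 0.052. The unnamed entry ENSBTAG00000039035 held between 0.833 and 1.02 of the HSPA6 count, with a difference of 0.0708 where counting would give about 0.322. An unnamed entry close to OST4, with 0.339 to 0.392 of its count, and LOC100298530, with 0.087 to 0.514 of the HSPA6 count, lay just under the counting noise (0.0583 against 0.0599 and 0.555 against 0.565). The profiles carry a prior count and the noise does not, which lowers the difference at few counts. LOC100298530 held only 2 to 47 counts per library, so its place under the noise cannot be read. These comparisons covered the 3 closest entries of each gene and were made after seeing the data. Such entries are not independent evidence for the gene, and the log2 fold change between sides in cumulus cells was -0.42 for the MUM1 one and -1.41 for the HSPA6 one. HSPA6 is also similar in sequence to other HSP70 genes, so its reads could have been split among them.

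On the reference assembly OST4 overlaps AGBL5 and RBM8A overlaps GNRHR2. The library kits do not mark strand, so reads in those overlaps cannot be assigned with certainty. The entry for GNRHR2, LOC789231, held between 6 and 105 counts per library, and RBM8A averaged between 2774.0 and 3402.5 counts per library by group. SMKR1, HSPA6 and MUM1 overlap no other RefSeq gene on that assembly. Entries with Ensembl IDs, such as those that followed MUM1 and HSPA6 closely, could not be placed there and were not checked.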

How the data were processed

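The authors deposited raw read counts, not normalized, with 1 row per gene entry and 1 column per library, and columns were matched to samples by title. Per the labels' protocols, total RNA was cleaned on columns and treated with DNase, cDNA was made with SMART-Seq HT and libraries with Nextera XT, and single ends of 75 bp were read. FastQC, Trimmomatic, STAR and DESeq2 are named in the submitters' processing notes, without versions. The build, the annotation and the program that counted reads: not given in the sources used here.

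Low entries were removed by filterByExpr. It asked for a count of about 10 in about as many libraries as a group holds, not in each, and for 15 in all. The rest were scaled with TMM and tested with edgeR 4.0.16 (quasi-likelihood F-test, robust dispersions, Benjamini-Hochberg over all entries) in R 4.3.3. Sides were compared in the 8 libraries of 1 cell type, and the cell type comparison and the difference of side effects used all 16 with 4 group means. SE is the absolute log2 fold change over the root of F. CPM were scaled over all 16 libraries, and profiles used a prior count of 2. The scripts were tested on simulated data.

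Alternatives were DESeq2 1.42.0, limma-voom (limma 3.58.1), other scaling, no filter, exact repeats counted once, single sides, and each library left out. Pairs of replicates differed by a chi-square per entry between 12.9 and 78.7, where repeat sequencing would give about 1. The 5 genes, the lists and the tests were chosen with earlier results of these data known. Named besides the 5 genes are the listed genes found by symbol, the 3 named entries with the closest profile to each, and entries that repeat or overlap them. Symbols came from the table or, for LOC entries, from RefSeq genes of ARS-UCD2.0 by gene number, which named 2473 entries.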

Additional observations from a re-analysis of the deposited data

How the results depend on the processing

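No paired analysis was possible because the labels give no replicate numbers. Between sides in cumulus cells edgeR called 0 entries, also without any 1 library (0 to 0), while DESeq2 called 120, and edgeR 30 with contralateral cumulus libraries 2 and 4 left out, an alternative added after seeing the data. Between sides in granulosa cells, and for the difference of side effects, edgeR and limma-voom called 0 and DESeq2 1 in each. Between cell types 3 of the 5 genes passed with all 16 libraries, against 60.2% of all entries. Without any 1 library 3 of 5 passed too, while between 10582 and 11055 of all entries did. With ipsilateral libraries alone 0 of 5 did, against 44.3% of all entries, and with contralateral libraries alone 5 of 5 did, against 47.6%. Each of these settings holds cumulus values that picked the genes. With ipsilateral libraries alone SMKR1 turned to -0.40 and RBM8A to 0.13, and in granulosa cells the OST4 side difference of -0.06 ran from -0.19 (without ipsilateral library 3) to 0.043 (without ipsilateral library 1), and was 9e-04 without contralateral library 2. HSPA6, with 21 to 47 counts per granulosa library, is the gene most limited by depth. Without any 1 granulosa library the log2 fold change between sides ran from 0.17 to 0.56 for HSPA6, from 0.064 to 0.53 for SMKR1, from 0.033 to 0.22 for MUM1 and from -0.24 to -0.10 for RBM8A.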
